A study of Mus musculus with 9 samples.

Results

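The 10 genes described here encode receptors for dopamine and noradrenaline and proteins that relay or end their signals. They were measured in the substantia nigra of mice given methylphenidate (MPH), a blocker of the dopamine and noradrenaline transporters. Their probe sets were taken by gene symbol from the annotation of the array platform. The list of genes itself was chosen with earlier results of these data known. The annotation used here named a probe set for 9 of the 10 listed genes, and these 9 have 16 of the 45037 probe sets tested. Drd1, Drd2, Drd3 and Drd4 encode dopamine receptors, Ppp1r1b a protein that relays dopamine signals inside the cell, Adra1b and Adra2c noradrenaline receptors, Maob an enzyme that degrades amines, and Slc6a2 the noradrenaline transporter. Adra1d, another noradrenaline receptor, was not analysed here.

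Swiss Webster mice were injected into the peritoneum on school days for 3 months with saline or with MPH at a dose of 1 mg/kg or of 10 mg/kg, starting shortly after weaning. After a drug-free week the substantia nigra was dissected, and Affymetrix HT MG-430 PM arrays were run on its RNA, with 3 arrays in each group. The deposited values are log2 intensities. No source used here says whether the animals of a group were littermates or whether RNA was pooled, so the p-values measure the spread between these arrays. Doses are given as the deposited labels have them, and arrays are named by them. The gene lists that accompany the study attach the doses the other way round, and which of them is right cannot be told from the files, so a difference between the 2 doses may stand for the reverse one. Saline against MPH does not depend on this.

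Dopamine receptors are coupled to G proteins and fall into a D1-like class, which raises cyclic AMP, and a D2-like class, which lowers it. In the substantia nigra the D2 receptor sits on the dopamine neurons themselves as an autoreceptor that restrains their firing and dopamine release, while D1 receptors are mostly on the incoming fibres of striatal neurons, whose cell bodies and most of whose RNA lie in the striatum. DARPP-32, the product of Ppp1r1b, is phosphorylated by protein kinase A and then inhibits protein phosphatase 1. Noradrenaline reaches the midbrain in fibres from the locus coeruleus, so RNA for its transporter is made in cell bodies outside the dissected region.

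The labelled tissue bore the genes that define its dopamine neurons. Th, the enzyme that limits dopamine synthesis, averaged 10.69 and Slc6a3, the dopamine transporter, 11.85 on the log2 scale over the 9 arrays. As a measure of background, 23 control probe sets that match no mouse transcript had a median of 2.93, with means between 2.60 and 5.07. Only Drd2, Ppp1r1b and Maob lay above that whole range. The means of the brightest probe sets of Drd1 (3.68), Drd3 (3.17), Drd4 (3.26), Adra1b (4.20), Adra2c (5.01) and Slc6a2 (3.62) lay within it, where a change of the transcript would be hard to see. Markers of neighbouring regions varied between arrays. The 7 markers of the thalamus averaged 6.15 to 8.08 in the saline arrays, 8.13 to 8.68 in the 1 mg/kg arrays and 6.57 to 8.19 in the 10 mg/kg arrays.

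**Figure D1:**
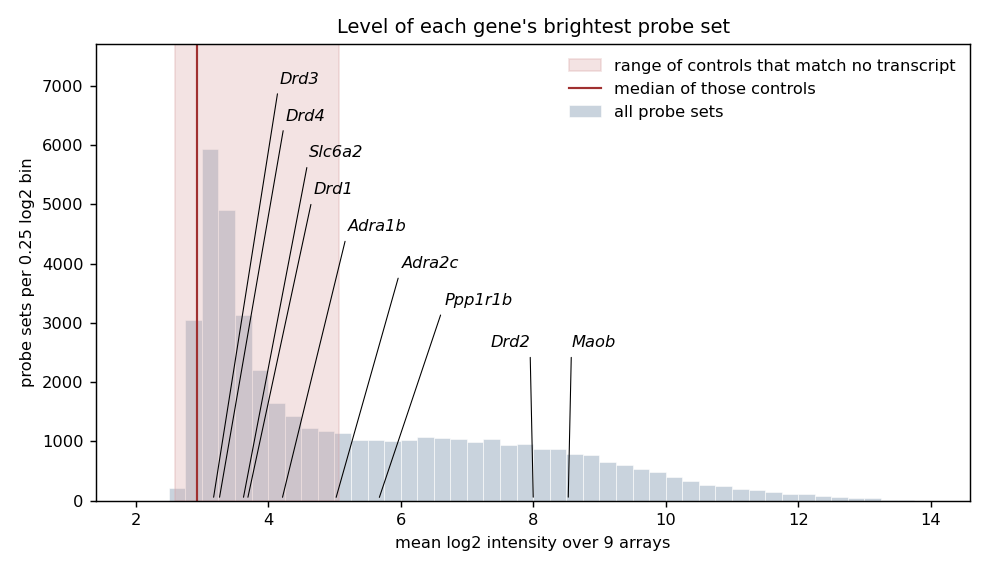
Number of probe sets per bin of mean log2 intensity over the 9 arrays (bars), with the brightest probe set of each of the 9 genes marked by a line. The shaded band spans the means of the 23 controls that match no transcript (2.60 to 5.07) and the red line is their median; Ppp1r1b, Drd2 and Maob lie to the right of the band. Probe sets differ in how brightly they report a transcript, so the order of the genes is not an order of RNA abundance.

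Of the 9 genes, Drd2 separated the MPH arrays from the saline arrays. Its signal in each of the 6 MPH arrays was below that in each of the 3 saline arrays, as was the case for 5.8% of all probe sets. Ppp1r1b lay below every saline array in all 3 of the 10 mg/kg arrays, a pattern found in 13.1% of all probe sets, and Maob in all 3 of the 1 mg/kg arrays, found in 12.4%. All fold changes given are on the log2 scale unless they are called times the saline level. None of the 16 probe sets passed limma's test with the replicate number as a block (adjusted p between 0.351 and 0.982 in the 10 mg/kg arrays, and between 0.378 and 0.942 in the 1 mg/kg arrays). The share of all probe sets that passed was likewise 0% in each dose against saline, in 10 mg/kg against 1 mg/kg and in both MPH groups together against saline. At an unadjusted p of 0.05 or less, 4637 probe sets (10.3%) in the 1 mg/kg arrays and 4318 (9.59%) in the 10 mg/kg arrays differed from saline, and of the 16 probe sets Drd2 did so in the first and Drd2 and Ppp1r1b in the second.

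Without the block, limma called 0.12% of all probe sets (54) in the 1 mg/kg arrays, 0.255% (115) in the 10 mg/kg arrays, 0.46% (207) in both MPH groups together and 0% in 10 mg/kg against 1 mg/kg. The only one of the 16 probe sets among these was that of Drd2, called in the 10 mg/kg arrays and in both MPH groups together. The deposited values carried less variation between replicate numbers than values with no batch would. The median F value of the replicate number was 0.073 over all probe sets, against 0.828 for values with no batch. If the deposited values were already corrected for replicate batch, the fit without the block counts 6 residual degrees of freedom where 4 remain. Its adjusted p-values would then be too small.

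**Figure D2:**
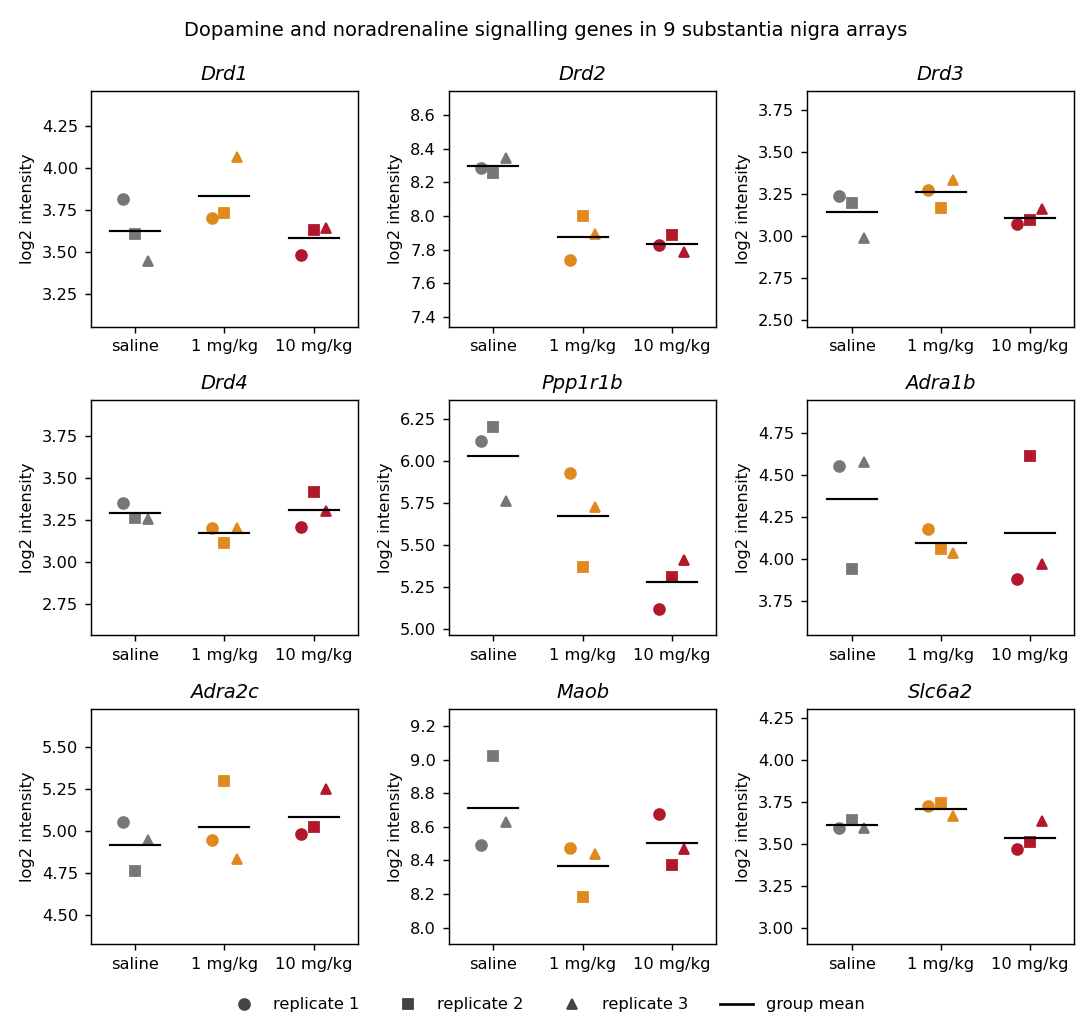
Log2 intensity of the brightest probe set of each gene in the 9 arrays, by group (saline, 1 mg/kg, 10 mg/kg); symbols mark the replicate number, black lines the group means (n = 3), and every panel spans the same height on the log2 scale. Drd2 is the gene whose 6 MPH arrays all sit below the 3 saline arrays.

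Drd2, the D2 receptor, had log2 intensities of 8.29, 8.26 and 8.35 in the saline arrays, 7.74, 7.997 and 7.89 in the 1 mg/kg arrays and 7.83, 7.89 and 7.78 in the 10 mg/kg arrays. The saline arrays lay close together, and the highest MPH array was the second 1 mg/kg array, still below every saline array. The group means were 8.30 ± 0.045 in saline, 7.88 ± 0.13 at 1 mg/kg and 7.83 ± 0.053 at 10 mg/kg (SD, n = 3 each). The log2 fold change against saline was -0.42 in the 1 mg/kg arrays (standard error 0.082, 95% interval -0.61 to -0.23), which is 0.747 times the saline level, and -0.46 in the 10 mg/kg arrays (standard error 0.082, 95% interval -0.65 to -0.27), which is 0.725 times. The 2 comparisons share the saline arrays.

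With the replicate block, the change of Drd2 did not pass limma's test (adjusted p = 0.378 at 1 mg/kg, 0.351 at 10 mg/kg and 0.278 for both MPH groups together, at -0.44). In limma with no block the adjusted p was 0.0625 at 1 mg/kg, 0.0462 at 10 mg/kg and 0.0331 for both together. Over the 16 alternatives tried for 10 mg/kg the adjusted p lay between 0.0462 and 0.690, and the fit without the block was the only one to pass. An exact two-sided permutation test of the 6 MPH arrays against the 3 saline arrays gave p = 0.0238 for Drd2, the smallest this design allows. That test shuffled the arrays freely and took no account of the replicate number. Each dose alone, at 3 arrays against 3, cannot go below an exact p of 0.1, and both gave 0.1. Between the doses the fold change was -0.041 (10 mg/kg against 1 mg/kg, 95% interval -0.23 to 0.15, limma adjusted p = 0.943).

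Of the 16 probe sets, 1 (Drd2) had all 6 MPH arrays below all saline arrays and 1 (of Slc6a2) had them all above, where the shares of all probe sets were 5.8% and 4.15%. The exact p was 0.05 or less, unadjusted, in 3 of the 16 probe sets, those of Drd2 and Ppp1r1b and the one of Slc6a2, and in 16% of all probe sets.

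The mean of genes that mark dopamine neurons was lower in the same arrays as Drd2. The 10 listed markers of these neurons were Th, Slc6a3, Ddc, Aldh1a1, Nr4a2, Pitx3, En1, Foxa2, Ret and Chrna6. All 10 had negative fold changes at both doses, with medians of -0.59 at 1 mg/kg and -0.50 at 10 mg/kg. Single markers ran between -0.23 (Slc6a3) and -0.76 (Ret) at 1 mg/kg and between -0.27 (Slc6a3) and -0.65 (Ret) at 10 mg/kg. None of them passed limma's test with the block. By single arrays, Nr4a2, Pitx3 and Foxa2 overlapped between MPH and saline. Pitx3, with a mean of 3.87, lay within the range of the background controls. The mean level of the 10 markers ranged between 8.85 and 9.12 in the saline arrays. It ranged between 8.38 and 8.49 in the 1 mg/kg arrays and between 8.46 and 8.53 in the 10 mg/kg arrays. Measured against that mean, Drd2 differed from saline by 0.11 ± 0.11 at 1 mg/kg and by 0.0069 ± 0.086 at 10 mg/kg, with a spread of 0.18 among the saline arrays (SD, n = 3 each). In dissected tissue, fewer cells of a type and less RNA per cell cannot be told apart.

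Some other measures differed between the same arrays. The control probe sets at the 3' end of Actb exceeded those at its 5' end by 1.03 to 1.19 in the MPH arrays and by 0.88 to 0.93 in the saline arrays, while for Gapdh the MPH arrays (0.22 to 0.41) and the saline arrays (0.23 to 0.39) overlapped. This difference grows as RNA degrades. The 2 measured markers of serotonin neurons, which lie near the substantia nigra, averaged 4.16 to 6.95 in the saline arrays, 3.18 to 3.86 in the 1 mg/kg arrays and 3.44 to 4.76 in the 10 mg/kg arrays, so that the 10 mg/kg and saline arrays overlapped. The part of RNA quality and of the dissected area in the values of Drd2 was not tested.

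**Figure D3:**
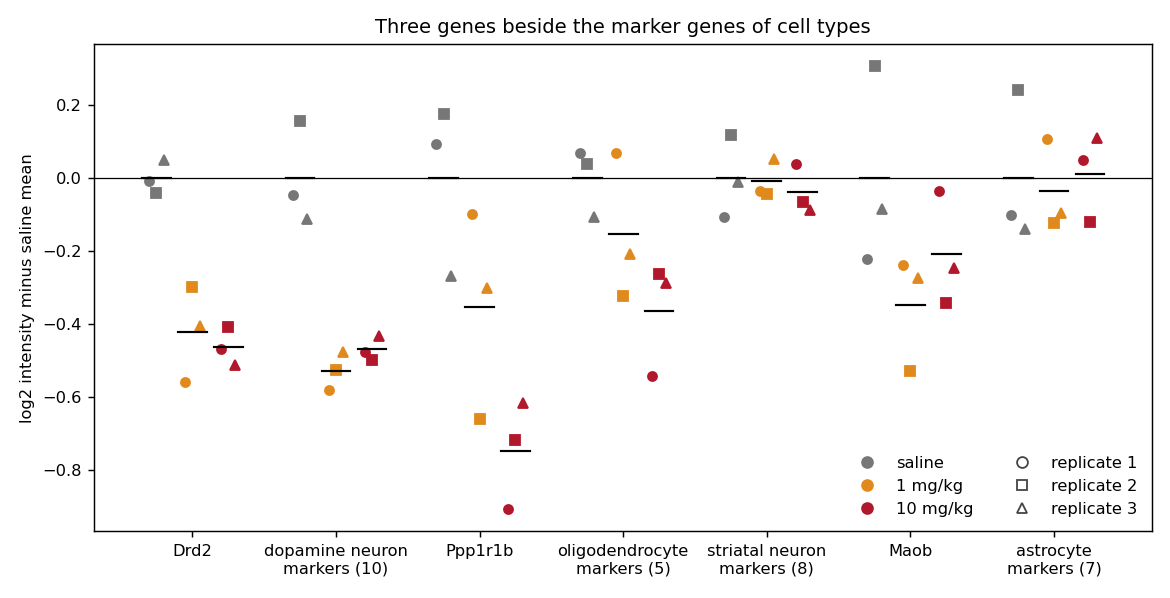
Log2 intensity relative to the mean of the saline arrays for Drd2, Ppp1r1b and Maob and for the mean of the marker genes of 4 cell types (number measured in brackets), in the saline arrays and the 1 mg/kg and 10 mg/kg arrays; symbols mark replicate numbers and black lines group means (n = 3). Drd2 (-0.42 and -0.46) lies near the mean of the dopamine neuron markers (-0.53 and -0.47), whose single genes spread more widely. Ppp1r1b (-0.35 and -0.75) lies below the mean of the oligodendrocyte markers (-0.15 and -0.36).

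The promoter of Drd2 is shown because Drd2 is the gene whose MPH arrays all lay below the saline arrays. It is the run of 250 bases before a RefSeq start site on the plus strand (chr9:49340153-49340402, GRCm38.p6). RefSeq gives the gene's span as chr9:49340360-49408177, so the end of the window, before this start site, lies inside the span. The capitals mark GC boxes (GGGCGG on either strand), the motif bound by Sp1-type factors.
Drd2 promoter: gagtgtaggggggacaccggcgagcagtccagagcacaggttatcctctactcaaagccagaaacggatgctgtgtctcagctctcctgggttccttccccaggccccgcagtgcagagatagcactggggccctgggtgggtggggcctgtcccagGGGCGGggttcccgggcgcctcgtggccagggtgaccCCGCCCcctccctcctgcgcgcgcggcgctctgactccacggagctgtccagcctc
The window holds 2 GC boxes, 93 and 56 bases before the start site, and has 68.8% G and C, where the median of all 32817 mouse windows of that length is 52.4%. A GC box occurs in 32.7% of all windows. The cyclic AMP element (TGACGTCA, in 1.55% of all windows) and the TATA box (TATAAA, in 12.4%) were searched on both strands and found in none of the 8 windows available for 6 of the 9 genes. Drd4 has 3 GC boxes in its window, 2 of them overlapping by a base. These matches describe the sequence only.

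The other dopamine receptors lay near background. Drd1, the D1 receptor, had 3.82, 3.61 and 3.45 in the saline arrays, 3.71, 3.73 and 4.07 in the 1 mg/kg arrays and 3.48, 3.63 and 3.65 in the 10 mg/kg arrays, so that the groups overlapped. The log2 fold change of Drd1 was 0.21 at 1 mg/kg and -0.038 at 10 mg/kg (standard error 0.13). Drd3, a D2-like receptor of limbic regions, ranged between 2.98 and 3.33 over the 9 arrays, with fold changes of 0.12 at 1 mg/kg and -0.032 at 10 mg/kg.

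Drd4, another D2-like receptor, has 2 probe sets. The brighter one had 3.35, 3.26 and 3.26 in the saline arrays, 3.20, 3.11 and 3.20 in the 1 mg/kg arrays and 3.21, 3.41 and 3.30 in the 10 mg/kg arrays. All 3 of the 1 mg/kg arrays were thus below all saline arrays, by a mean of 0.12 on the log2 scale, while the other probe set had a fold change of 0.072 in that comparison. At 10 mg/kg the fold changes of the 2 probe sets were 0.017 and -0.0091.

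Ppp1r1b (chr11:98348406-98357796, GRCm38.p6) had 6.12, 6.21 and 5.76 in the saline arrays, 5.93, 5.37 and 5.73 in the 1 mg/kg arrays and 5.12, 5.31 and 5.41 in the 10 mg/kg arrays. The 10 mg/kg arrays were all below the lowest saline array, replicate 3, and the 1 mg/kg arrays overlapped with both groups. The means were 6.03 ± 0.24 in saline, 5.67 ± 0.28 at 1 mg/kg and 5.28 ± 0.15 at 10 mg/kg (SD, n = 3 each).

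The log2 fold change of Ppp1r1b was -0.35 at 1 mg/kg (standard error 0.18, 95% interval -0.76 to 0.055) and -0.75 at 10 mg/kg (standard error 0.18, 95% interval -1.16 to -0.34), or 0.782 and 0.595 times the saline level. Neither passed limma's test with the block (adjusted p = 0.529 at 1 mg/kg and 0.417 at 10 mg/kg), and neither passed with none (0.274 and 0.0861). Over the alternatives tried for 10 mg/kg the adjusted p lay between 0.0861 and 0.690. For both MPH groups against saline, at -0.55, the exact permutation p, which ignores the replicate number, was 0.0476. Limma's adjusted p with the block was 0.337. The 10 mg/kg arrays differed from the 1 mg/kg arrays by -0.39 (95% interval -0.80 to 0.016, limma adjusted p = 0.777).

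DARPP-32 is best known from the projection neurons of the striatum. The 8 measured of 11 listed markers of those neurons had means of -0.0095 at 1 mg/kg and -0.038 at 10 mg/kg relative to saline, over genes that lay on both sides of 0 (4 higher and 4 lower at 1 mg/kg, 3 higher and 5 lower at 10 mg/kg, none past limma's test). They ran between Penk, the precursor of enkephalin, at -0.50 and -0.37, and Arpp21, a phosphoprotein regulated by cyclic AMP, at 0.40 and 0.51. Tac1, Rgs9 and Adcy5 were, like Penk, below saline at both doses. The 5 measured of 6 listed markers of oligodendrocytes, the cells that form myelin, averaged between 10.40 and 10.68 in the 10 mg/kg arrays. They averaged 10.83 to 11.01 in the saline arrays, so that these means did not overlap. By single genes, Mbp and Mobp overlapped between 10 mg/kg and saline. Single oligodendrocyte markers ran between 0.051 (Mobp) and -0.44 (Cnp) at 1 mg/kg and between -0.115 (Mobp) and -0.62 (Mag) at 10 mg/kg. Relative to saline, Ppp1r1b minus the mean of these markers was -0.20 ± 0.13 at 1 mg/kg and -0.38 ± 0.065 at 10 mg/kg. The saline arrays had an SD of 0.15 in this measure. Replicate 1 of the 10 mg/kg arrays had the lowest Ppp1r1b and the lowest oligodendrocyte mean (-0.54 relative to saline), and its markers of cortex and hippocampus neurons stood 0.94 above the saline mean. The 5 listed microglia markers were also all lower at 10 mg/kg (median -0.23). Their mean overlapped with saline and was lowest in this array (-0.46 relative to saline). Without that array the fold change of Ppp1r1b at 10 mg/kg was -0.58. At 1 mg/kg its fold change was -0.15 without MPH 1 mg/kg replicate 2, -0.20 without saline replicate 2 and -0.53 without saline replicate 3. The part of other cells in the values of Ppp1r1b was not tested.

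Maob (chrX:16709281-16817366, GRCm38.p6), which encodes monoamine oxidase B, is found in astrocytes and in serotonin neurons. It had 8.49, 9.02 and 8.63 in the saline arrays, 8.47, 8.18 and 8.44 in the 1 mg/kg arrays and 8.68, 8.37 and 8.47 in the 10 mg/kg arrays. The second saline array was the highest of all 9, and the 1 mg/kg arrays were all below the lowest saline array, the nearest by 0.0175. The log2 fold changes were -0.35 at 1 mg/kg (95% interval -0.73 to 0.029) and -0.21 at 10 mg/kg (95% interval -0.59 to 0.17), with limma adjusted p of 0.513 and 0.689.

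The size of the fold changes of Maob depended most on 1 saline array, and at 10 mg/kg so did the sign. Without saline replicate 2 the fold changes were -0.12 at 1 mg/kg and 0.024 at 10 mg/kg. In that same saline array the 7 astrocyte markers stood 0.24 above the saline mean and the serotonin neuron markers 1.16 above it. The thalamus markers of that array were at -1.21 relative to the saline mean. The part of any of these differences in the level of Maob was not tested. Over the MPH groups the astrocyte markers averaged -0.037 at 1 mg/kg and 0.012 at 10 mg/kg relative to saline.

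The noradrenaline receptors gave no call. Adra1b, an alpha-1 receptor coupled to calcium release, had 4.56, 3.94 and 4.58 in the saline arrays, 4.18, 4.06 and 4.04 in the 1 mg/kg arrays and 3.88, 4.61 and 3.97 in the 10 mg/kg arrays. Single arrays of the saline and 10 mg/kg groups lay apart from the other two of their group, in opposite directions, and all groups overlapped. The fold changes were -0.26 and -0.20 (standard error 0.24).

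Adra2c, an alpha-2 receptor that lowers cyclic AMP, has 4 probe sets. The brightest had 5.05, 4.76 and 4.95 in the saline arrays, 4.95, 5.30 and 4.84 in the 1 mg/kg arrays and 4.98, 5.02 and 5.25 in the 10 mg/kg arrays, with fold changes of 0.11 and 0.17 (standard error 0.15). The second was above all saline arrays in all 3 of the 10 mg/kg arrays, at 4.86 ± 0.022 against 4.77 ± 0.034 in saline (SD, n = 3 each), a log2 fold change of 0.089. The other two, one of which is of a type that can also bind related transcripts, differed in sign at 10 mg/kg, with 0.24 and -0.17.

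Slc6a2 stayed near background in all 4 of its probe sets, whose means lay between 3.15 and 3.62. The brightest had 3.59, 3.64 and 3.59 in the saline arrays, 3.72, 3.74 and 3.66 in the 1 mg/kg arrays and 3.47, 3.51 and 3.63 in the 10 mg/kg arrays. Its 1 mg/kg arrays were above all saline arrays, by 0.098 on average, and the 10 mg/kg arrays differed from saline by -0.0735. A second probe set was higher in all 6 MPH arrays (3.36 to 3.40) than in all 3 saline arrays (3.21 to 3.34), with an exact permutation p of 0.0238, at a signal below that of some controls that match no transcript. The remaining probe sets had fold changes between 0.025 and 0.12. The 3 measured of 4 listed markers of noradrenaline neurons, Slc6a2 among them, averaged between 3.75 and 3.92 in every array.

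**Figure D4:**
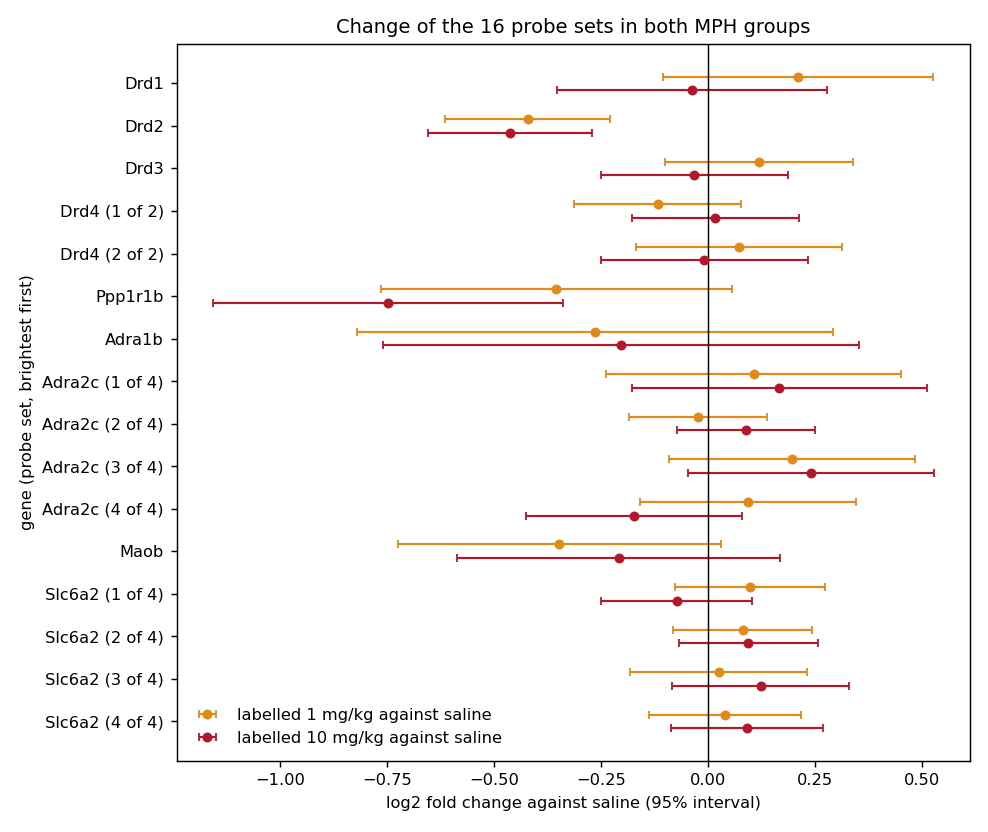
Log2 fold change against saline of the 16 probe sets in the 1 mg/kg arrays (orange) and the 10 mg/kg arrays (red), with 95% intervals from limma with the replicate block, not adjusted for the number of probe sets. The intervals of Drd2 at both doses and of Ppp1r1b at 10 mg/kg lie below 0, and all the others cross it.

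Counted over the 9 genes by their brightest probe set, the 1 mg/kg arrays were all below saline in 3 genes (Drd2, Drd4 and Maob) and all above it in 1 (Slc6a2), where 12.4% and 10.7% of all probe sets were. The 10 mg/kg arrays were all below saline in 2 genes (Drd2 and Ppp1r1b) and all above it in 0, where 13.1% and 10.3% of all probe sets were. Over all 16 probe sets the counts were 3 below and 2 above at 1 mg/kg, and 2 below and 2 above at 10 mg/kg, close to those shares. The median fold change of the 9 genes was -0.12 at 1 mg/kg and -0.0735 at 10 mg/kg, and that of all probe sets was -0.0046 and -0.0075. With 1 array left out, the median of the 9 genes at 10 mg/kg lay between -0.142 (without saline replicate 3) and 0.0043 (without MPH 10 mg/kg replicate 1).

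Other genes of the pathway were counted from lists of enzymes and carriers, of G proteins, cyclases and regulators, and of kinases, phosphatases and phosphodiesterases. None of their measured genes passed limma's test with the block in either direction. Of the 6 measured of 10 listed enzymes and carriers of synthesis and removal, 5 were lower than saline at each dose, but not the same 5. The exception was Pnmt at 1 mg/kg (0.084) and Dbh at 10 mg/kg (0.27). Dbh, also one of the noradrenaline neuron markers, was at -0.099 at 1 mg/kg. Its mean of 4.54 lay within the range of the background controls. Th was at -0.66 and -0.57 (standard error 0.091, limma adjusted p = 0.341 and 0.329 with the block, 0.0394 and 0.0415 with none). Ddc, which makes dopamine from L-dopa, was at -0.40 and -0.38 (standard error 0.078), Slc6a3 at -0.23 and -0.27 (standard error 0.092), and Slc29a4, a low-affinity monoamine carrier, at -0.14 and -0.20 (standard error 0.11). Th, Ddc and Slc6a3 were also among the listed markers of dopamine neurons.

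Genes that act after the receptors lay on both sides of 0. Of the 29 measured of 32 listed G proteins, cyclases and regulators, 13 were higher and 16 lower than saline at each dose, with medians of -0.018 at 1 mg/kg and -0.027 at 10 mg/kg. Arrb1, a beta-arrestin that uncouples receptors, was at -0.22 and -0.27 (standard error 0.077). Grk6, a kinase that phosphorylates active receptors, was at -0.13 and -0.24 (standard error 0.083). The cyclase Adcy9 was at 0.21 in both, and the cyclase Adcy3 at -0.086 and -0.21.

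Of the 28 measured of 31 listed kinases, phosphatases and phosphodiesterases, 16 were higher at 1 mg/kg and 17 at 10 mg/kg. Arpp21, like Ppp1r1b a phosphoprotein of striatal neurons regulated by cyclic AMP, was at 0.40 and 0.51 (standard error 0.14). The protein kinase A subunit Prkar1b was at -0.35 and -0.24, the calcineurin subunit Ppp3ca at 0.14 and 0.24, and Cdk5r1, the activator of Cdk5, at 0.23 and 0.14. With the block, limma's adjusted p was 0.433 and 0.424 for Arpp21.

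The genes most like Drd2, Ppp1r1b and Maob over the 9 arrays were sought by Pearson's r among 14765 probe sets of single genes with a mean of 5 or more. For Drd2 they were Pomgnt2 (r = 0.983), Spin2c (0.977) and Slc10a4 (0.976), the last a vesicle protein of monoamine and cholinergic neurons. For Ppp1r1b they were Metrn (0.988), Mzt2 (0.985) and Mag (0.973), the last a myelin gene that is also one of the oligodendrocyte markers. For Maob they were Myorg (0.984), Ahi1 (0.978) and Baiap3 (0.977). The arrays share their groups and batches, so these values are a description with no test.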

How the data were processed

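The deposited log2 intensities were made by the authors with RMA (no version given). ComBat, for a batch of the 3 replicates, is also named in their methods, with no word on whether it was applied to the values deposited. Of 45141 probe sets, 104 controls were left out. A linear model of the 3 groups was fitted to the 45037 others (lmFit and eBayes of limma 3.58.1, R 4.3.3), with the replicate number as an additive block, which leaves 4 residual degrees of freedom in place of 6, and p-values were adjusted by Benjamini and Hochberg over all of them at a threshold of 0.05. The pairing comes from the batch named in the methods; same-numbered arrays correlated between -0.63 and -0.13 in their deviations from the group means. The block was kept as it holds back the degrees of freedom that a batch correction uses.

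Symbols came from the platform annotation, with 28898 probe sets naming 1 gene, 551 several and 15588 none, and positions and promoters from RefSeq on GRCm38.p6. Where a gene has several probe sets, the brightest stands for it and the others are given beside it. The members, gene lists, tests and the rule for named genes (up to 4 of each list with the smallest p, and 3 by likeness) were chosen with earlier results of these data known. Pnmt and Dbh are named outside that rule, as the exceptions by direction in their list. Of the 7 other dopamine and noradrenaline receptors listed, 0 had a probe set in the annotation used here. Limma's test was checked on simulated data, with noise drawn independently for each array. The permutation test was checked on made-up numbers in fully separated groups. Exact permutation tests used scipy 1.17.1 in Python 3.11.15, with no replicate block. They treat the arrays as interchangeable, which would not hold for values already corrected by replicate number. The number of arrays limits the precision.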

Additional observations from a re-analysis of the deposited data

How the results depend on the processing

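Drd2 kept its direction against saline under every alternative tried, at both doses, as did Ppp1r1b. Without the replicate block, 54 probe sets passed limma's test at 1 mg/kg, 115 at 10 mg/kg and 207 in both MPH groups together, and the probe set of Drd2 was the 1 of the 16 that passed at 10 mg/kg and in both together; the block changed no other call of the 9 genes. With an intensity trend and the robust option 2, 1 and 3 probe sets passed. Among the probe sets brighter than the median, which keep 4 of the 9 genes, the median fold change of these genes was -0.35 at 1 mg/kg, -0.34 at 10 mg/kg and -0.36 in both together. When all probe sets of a gene were averaged, the median was -0.023 at 1 mg/kg, and the sign turned for Slc6a2 at 10 mg/kg (0.058) and for Adra2c between the doses (-0.012).

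With 1 array left out, 0 to 1 probe sets passed in each comparison with saline, and 0 of the 16. The median of the 9 genes lay between -0.14 and -0.069 at 1 mg/kg, between -0.142 and 0.0043 at 10 mg/kg, between -0.088 and -0.0018 in both MPH groups together and between -0.143 and 0.0055 for 10 mg/kg against 1 mg/kg. Signs that turned were of changes that limma had not called. The largest of them with all arrays were Maob (-0.21) and Adra1b (-0.20) at 10 mg/kg. At 1 mg/kg Adra2c lay between -0.084 and 0.25. At 10 mg/kg Drd1 lay between -0.20 and 0.12, Drd3 between -0.142 and 0.023, Drd4 between -0.058 and 0.090, Adra1b between -0.55 and 0.0043 and Maob between -0.39 and 0.024. In both MPH groups together Drd1 lay between -0.075 and 0.24, Drd3 between -0.067 and 0.099 and Slc6a2 between -0.020 and 0.034. Between the doses Drd2 lay between -0.11 and 0.016, Adra1b between -0.28 and 0.27 and Adra2c between -0.083 and 0.25. The cause of these shifts was not tested. A signal within the range of the controls that match no transcript limits what these arrays can show of Drd1, Drd3, Drd4, Adra1b, Adra2c and Slc6a2.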
